A study of Mus musculus with 62 samples.

Results

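Mitochondrial ribosomal protein genes were taken as every row of the deposited expression table whose symbol starts with Mrpl or Mrps, followed by a number and at most 1 letter. The rule found 77 of 47643 genes, 48 named Mrpl for the large subunit and 29 named Mrps for the small subunit. No measured value entered the choice. Another 5 symbols of the family end in -ps, were left out by the rule, and are listed at 0 in all 62 libraries. Levels are in TPM, transcripts per 1000000 after correction for gene length. All 77 members reached at least 1 TPM in at least 5 libraries, which was the filter for testing, and so did 13529 genes in all.

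Mitochondria keep their own ribosome, the mitoribosome, which translates the small set of messenger RNAs made from mitochondrial DNA. These encode core subunits of the respiratory chain and of ATP synthase. The mitochondrial genome supplies the ribosomal RNAs, whereas every mitoribosomal protein is encoded in the nucleus, made in the cytosol and imported. Many of the proteins have a bacterial counterpart, and others are found only in mitochondrial ribosomes. Soleus, a postural hindlimb muscle rich in slow oxidative fibres, depends on this system to maintain its respiratory capacity.

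The study followed soleus muscle of mice during melanoma-induced cachexia, the wasting that can accompany a tumour. The mice were female and 2 months old, and formed 3 arms: CAC mice were given cachectic melanoma cells, NCAC mice were given melanoma cells that are non-cachectic, and Con mice were mock injected. Soleus was taken 2, 4, 6 and 8 weeks later, which makes 12 groups, of which 11 have 5 libraries and the last, CAC at 8 weeks, has 7. The labels disagree on the host: the sample entries give strain C57BL6/J, the series text gives NCI Ath/nude mice, which lack T cells, and the extraction text mentions LLC cells. Neither melanoma line is named, no genetic manipulation is listed, and libraries are described as biological replicates without animal identifiers.

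TPM keeps no record of read depth, so the depth of each library is unknown here. All 62 libraries carried slow-fibre markers, but the week-8 libraries stood apart: on the first principal component (56.9% of variance) 16 of 17 lay beyond every earlier library, NCAC replicate 2 being the other one. Summed TPM of 11 macrophage markers ranged from 64.5 to 374 in weeks 2 to 6 and from 415 to 3139 in week 8, 8 adipocyte markers ranged from 728 to 3736 and from 2772 to 20861, and 7 slow-fibre markers ranged from 30286 to 50186 and from 14317 to 36596. Week 8 cannot be told apart from any collection or sequencing batch of that week, so comparisons between treatments were made within a week. The fast-fibre myosin gene Myh4 stood at 2040 TPM in CAC replicate 6 of week 8 and at 23.6 TPM or less in the other week-8 libraries. It was also high in CAC replicate 4 of week 2 (1013 TPM) and NCAC replicate 3 of week 6 (687 TPM). The other libraries of weeks 2 to 6 had 159 TPM or less. In whole muscle, fewer cells of a type and less RNA per cell cannot be told apart.

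Promoters of nuclear genes for mitochondria are known for binding sites of NRF-1, of ETS-family factors such as GABP, and of YY1. RefSeq windows from 250 bases before to 50 bases after the start (GRCm38.p6) were found for 68 of the 77 members, and both strands were searched for GCGC followed by any pair of bases (NN) and again GCGC (NRF-1 type), CCGGAAG (ETS type) and AAGATGGCG (YY1 type). The ETS-type letters were present in 25 of 68 members (36.8%), against 19% of 10077 tested genes with a window and 9.93% of 27025 genes in all. The NRF-1-type letters were present in 14 members (20.6%), against 14.5% and 7%. The YY1-type letters were present in 8 members (11.8%), against 3.41% and 1.64%. At least 1 of the 3 was found in 41 members (60.3%), 32.5% of tested genes and 16.6% of all genes. The 4 windows below were chosen as examples with a match, from members that fell in CAC muscle at 8 weeks. Not every member that fell has a window, so the examples do not stand for all of them. Each of the 4 windows shows 1 match in capitals, with no overlap between motifs. They are Mrps12 at chr7:28741772-28742071 on the minus strand (ETS type, 1 base after the start), Mrpl12 at chr11:120484387-120484686 on the plus strand (NRF-1 type, 81 bases before the start), Mrpl28 at chr17:26123253-26123552 on the plus strand (NRF-1 type, 22 bases after the start) and Mrpl42 at chr10:95501900-95502199 on the minus strand (YY1 type, 27 bases after the start). A match is a stretch of letters and not evidence of binding.
Mrps12: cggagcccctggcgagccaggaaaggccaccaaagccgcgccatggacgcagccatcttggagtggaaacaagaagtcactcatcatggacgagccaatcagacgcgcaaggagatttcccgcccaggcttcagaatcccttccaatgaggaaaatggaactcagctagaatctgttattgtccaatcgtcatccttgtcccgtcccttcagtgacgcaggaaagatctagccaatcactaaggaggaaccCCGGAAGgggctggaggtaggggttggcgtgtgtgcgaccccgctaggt
Mrpl12: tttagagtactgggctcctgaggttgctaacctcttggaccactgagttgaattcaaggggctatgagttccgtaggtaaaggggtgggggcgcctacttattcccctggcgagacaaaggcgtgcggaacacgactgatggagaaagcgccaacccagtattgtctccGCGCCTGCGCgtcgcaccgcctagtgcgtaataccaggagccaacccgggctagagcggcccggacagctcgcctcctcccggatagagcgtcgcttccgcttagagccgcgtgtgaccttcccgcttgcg
Mrpl28: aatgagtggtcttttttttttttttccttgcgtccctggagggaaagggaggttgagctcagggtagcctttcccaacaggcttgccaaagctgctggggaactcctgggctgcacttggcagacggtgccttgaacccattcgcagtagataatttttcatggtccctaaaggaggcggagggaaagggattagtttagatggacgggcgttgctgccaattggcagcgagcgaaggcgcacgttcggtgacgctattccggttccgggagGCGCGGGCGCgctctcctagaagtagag
Mrpl42: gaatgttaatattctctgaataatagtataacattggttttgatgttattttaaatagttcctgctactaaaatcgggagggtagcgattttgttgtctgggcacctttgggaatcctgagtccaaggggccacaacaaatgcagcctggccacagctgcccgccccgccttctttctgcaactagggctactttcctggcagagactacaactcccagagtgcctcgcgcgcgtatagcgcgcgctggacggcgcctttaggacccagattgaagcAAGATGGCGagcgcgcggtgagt

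Levels of the members differed far more between genes than between groups. The mean over the 12 group means was highest for Mrpl42 (430 TPM), a large-subunit protein with no bacterial counterpart, followed by Mrpl14 (169 TPM), Mrps21 (158 TPM), Mrpl12 (144 TPM) and Mrpl53 (134 TPM). It was lowest for Mrps10 (4.84 TPM), Mrpl19 (6.86 TPM) and Mrps35 (7.19 TPM). The median member stood at 39.9 TPM, 8 members were above 100 TPM, 63 lay from 10 to 100 TPM and 6 were under 10 TPM. The highest member was thus 88.8 times the lowest. Within a member, the highest group mean was at the median 1.38 times the lowest. The ratio passed 2 for 5 members, namely Mrpl33 (2.55), Mrps6 (2.34), Mrps24 (2.21), Mrpl52 (2.15) and Mrps21 (2.09), all with the highest group at 8 weeks. The order of members was nearly fixed, with a Spearman correlation of 0.95 across the 77 genes between the means of Con at 6 weeks and of CAC at 8 weeks, which share gene lengths and the reference annotation. By role, the median level was 42.2 TPM for 30 large-subunit genes with a bacterial counterpart, 38.2 TPM for 20 large-subunit genes particular to mitochondria, 34.3 TPM for 16 small-subunit genes with a bacterial counterpart and 29.4 TPM for 10 small-subunit genes particular to mitochondria. Mrps36, whose product is now known as a subunit of the 2-oxoglutarate dehydrogenase complex, was counted apart and averaged 72.2 TPM.

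**Figure D1:**
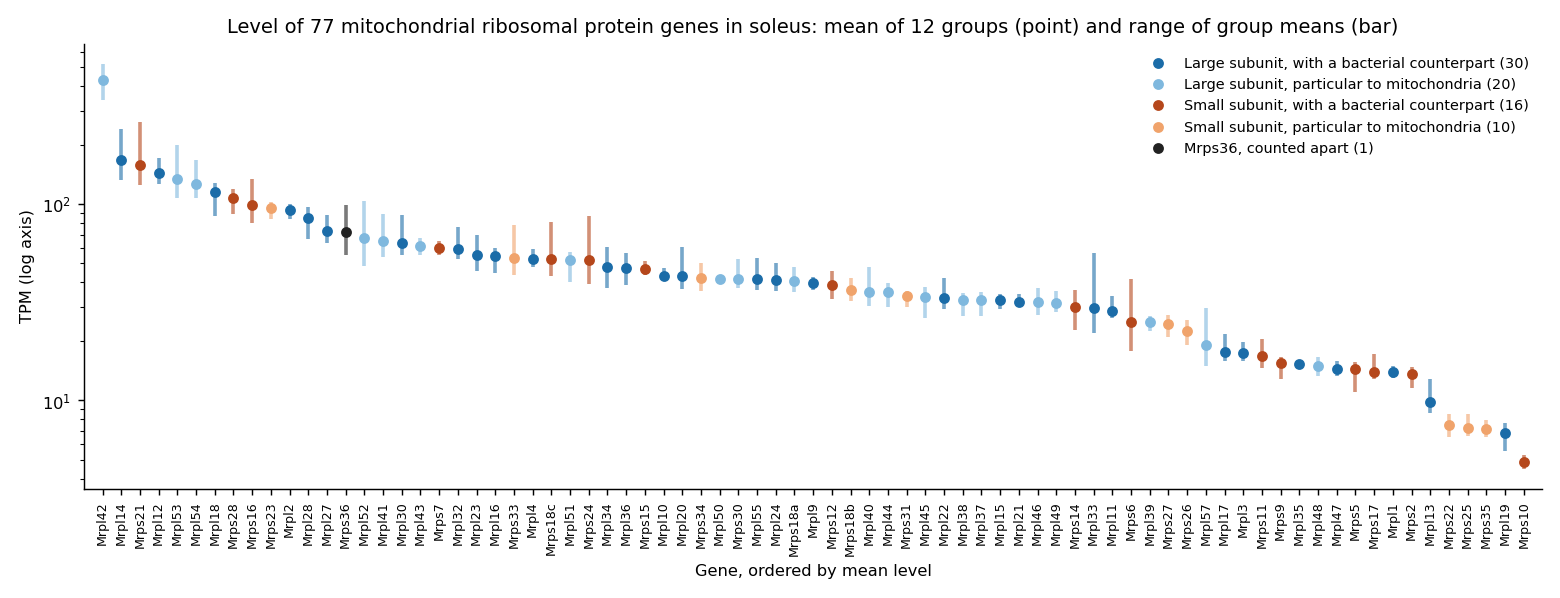
Mean TPM over the 12 group means (point, log axis) and the range of group means (bar) for each of 77 members, ordered by level and coloured by role. Mrpl42 stands highest at 430 TPM and Mrps10 lowest at 4.84 TPM, and most bars are short beside the distance between genes.

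Whether soleus of mice with cachectic tumours carried less mitoribosomal message than mock-injected soleus was read first at 8 weeks. In CAC against Con, 9 of 77 members fell and none rose (limma, adjusted p under 0.05), while 4.26% of all tested genes fell and 6.31% rose. The log2(TPM + 1) change was negative for 71 members, with a median of -0.18, beside 0.00 over all tested genes, and 31 members and 26.7% of all genes had an unadjusted p under 0.05. The members that fell were Mrpl42, Mrpl28, Mrpl18, Mrpl51, Mrpl46, Mrps28, Mrpl12, Mrps12 and Mrpl4. Of 77 members, 10 had every CAC library below every Con library (13%), against 3.05% of tested genes. Leaving out CAC replicate 3 took the count of members that fell to 14. That replicate had the highest summed level of 5 erythroid markers of all 62 libraries, 27331 TPM. The next highest was 10527 TPM, in NCAC replicate 5 of week 8. Counts with 1 library left out, here and below, have no share of all genes beside them. They show only how far the calls rest on single libraries. CAC replicate 6 and NCAC replicate 2 stand apart within week 8, by Myh4 and by the first principal component. Without them, a choice made after seeing the data that kept CAC replicate 3, 17 fell and none rose, beside 4.97% and 9.25% of all genes. After median-of-ratios rescaling, which aligns the libraries on the typical gene, 13 fell and none rose, beside 7.08% and 5.89% of genes. The calls of Mrps28, Mrpl42, Mrpl51, Mrpl28, Mrpl46 and Mrpl18 held with any 1 library left out.

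Among large-subunit proteins with a bacterial counterpart, 4 of 30 fell at 8 weeks, beside 4.26% of all tested genes. Mrpl12, which with Mrpl10 forms the stalk that recruits translation factors, measured 164, 179, 196, 153 and 164 TPM in Con. CAC ranged from 113 over a median of 131 to 149 TPM, and all 7 CAC libraries lay below the lowest Con library. The log2 change was -0.39 (SE 0.11, adjusted p = 0.0271, limma). Its partner Mrpl10 averaged 47.2 ± 3.83 TPM in the 5 Con libraries and 42.6 ± 3.99 TPM in the 7 CAC libraries (± SD), and its change of -0.15 (SE 0.09, adjusted p = 0.291) did not pass. Mrpl11, the protein at the base of the stalk, changed by -0.25 (SE 0.10, adjusted p = 0.1), which did not pass either. The Mrpl12 call was lost on leaving out Con replicate 1, 2, 3 or 5 or CAC replicate 1 or 2 (adjusted p up to 0.0823).

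Mrpl28 (chr17:26123500-26126613, plus strand, GRCm38), whose human counterpart was first described as a melanoma antigen, measured 90.8, 101, 108, 92.3 and 92.1 TPM in Con at 8 weeks. CAC ranged from 50.8 over a median of 64.2 to 90.7 TPM, so the highest CAC library, replicate 3, lay just under the lowest Con library. The change was -0.56 (SE 0.13, adjusted p = 0.0122, limma). Mrpl18 (chr17:12911349-12916345, minus strand), a protein of the central protuberance of the large subunit, measured 116, 122, 132, 110 and 118 TPM in Con and from 71.1 over a median of 84.1 to 107 TPM in CAC. All CAC libraries were below all Con libraries, with a change of -0.47 (SE 0.11, adjusted p = 0.0162). Mrpl4, which lines the upper part of the peptide exit tunnel, averaged 59.4 ± 5.37 TPM in the 5 Con libraries against 48.7 ± 1.67 TPM in the 7 CAC libraries (± SD), a change of -0.28 (SE 0.08, adjusted p = 0.0423). That call was kept only on removing CAC replicate 3 or 6, and was lost on removing any of the other 10 libraries (adjusted p up to 0.119). Mrpl32, which is matured by a protease of the inner membrane before it joins the ribosome, averaged 76.1 ± 6.87 and 72.8 ± 17.0 TPM and changed by -0.09 (SE 0.13, adjusted p = 0.722).

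Among large-subunit proteins particular to mitochondria, 3 of 20 fell at 8 weeks, beside 4.26% of all tested genes. Mrpl42 (chr10:95480805-95501940, minus strand, GRCm38), the most abundant member, measured 482, 633, 517, 470 and 485 TPM in Con. In CAC it ranged from 270 over a median of 339 to 411 TPM. No CAC library reached the lowest Con library, and the change of -0.60 (SE 0.13, adjusted p = 0.00876, limma) was the largest of any member. Mrpl51 (chr6:125191801-125196269, plus strand) measured 53.3, 58.1, 62.4, 50.2 and 52.4 TPM in Con and from 32.9 over a median of 37.4 to 47.1 TPM in CAC. The groups did not overlap, and the change was -0.46 (SE 0.10, adjusted p = 0.0093). Mrpl46, another protein of the central protuberance, measured 37.4, 39.0, 39.0, 34.4 and 37.3 TPM in Con and from 20.9 over a median of 26.8 to 35.4 TPM in CAC. CAC replicate 3 alone reached the Con range, and the change was -0.46 (SE 0.11, adjusted p = 0.0136). Mrpl45, which holds the ribosome to the inner membrane at the exit tunnel, averaged 33.6 ± 3.62 TPM in Con and 26.2 ± 5.87 TPM in CAC, and its change of -0.37 (SE 0.15, adjusted p = 0.128) did not pass. Mrpl44, related to RNase III enzymes, changed by -0.19 (SE 0.12, adjusted p = 0.324). Of the members named for the small subunit that sit in the large one, Mrps18a changed by -0.10 (SE 0.14, adjusted p = 0.701) and Mrps30 averaged 42.2 ± 2.90 TPM in Con and 52.6 ± 9.58 TPM in CAC, a change of 0.30 (SE 0.12, adjusted p = 0.116), which did not pass.

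Of the small-subunit genes, 2 of 16 with a bacterial counterpart and 0 of 10 particular to mitochondria fell at 8 weeks, beside 4.26% of all genes. Mrps28 (chr3:8802146-8923918, minus strand, GRCm38) measured 113, 120, 135, 121 and 113 TPM in Con and from 78.9 over a median of 89.1 to 105 TPM in CAC. The groups did not overlap, and the change was -0.42 (SE 0.09, adjusted p = 0.00812, limma). Mrps12, which lies at the decoding centre, measured 41.0, 48.2, 54.1, 42.2 and 44.0 TPM in Con and from 30.9 over a median of 35.6 to 40.2 TPM in CAC. Its groups did not overlap either, with a change of -0.36 (SE 0.10, adjusted p = 0.0300), but the call was lost without Con replicate 2, 3 or 5 or CAC replicate 1, 2 or 4 (adjusted p up to 0.0934). Mrps6 had the next largest change after Mrpl42 and Mrpl28, -0.55 (SE 0.19), yet Con replicates spread from 29.9 to 62.8 TPM and overlapped the CAC values of 24 to 35.3 TPM, and it did not pass (adjusted p = 0.0701). Mrps34, which is needed for a stable small subunit, changed by -0.27 (SE 0.10, adjusted p = 0.0851). Mrps27, a protein with RNA-binding pentatricopeptide repeats, changed by 0.11 (SE 0.11, adjusted p = 0.579). The paralogues Mrps18b and Mrps18c changed by 0.18 (SE 0.13, adjusted p = 0.405) and -0.18 (SE 0.15, adjusted p = 0.479). Mrps36 changed by -0.31 (SE 0.14, adjusted p = 0.171).

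**Figure D2:**
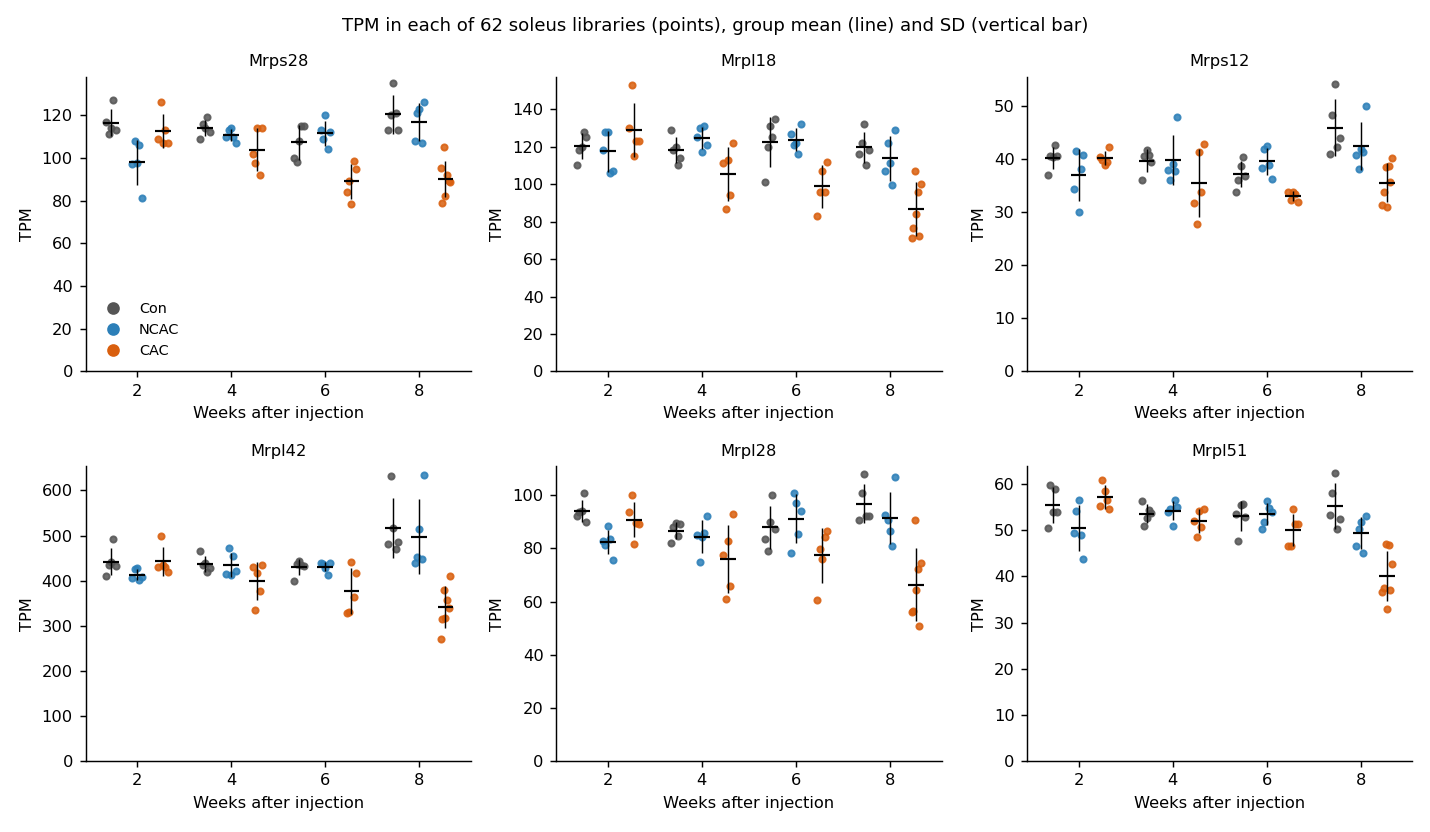
TPM of 6 members in each of the 62 libraries by week and treatment, with the group mean (line) and SD (vertical bar). At 8 weeks the 7 CAC libraries of Mrps28, Mrpl18, Mrps12, Mrpl42 and Mrpl51 lie below all 5 Con libraries, and the highest of Mrpl28 (90.7 TPM) lies just under its lowest Con library (90.8 TPM).

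At 6 weeks, CAC against Con called 4 members: 3 fell and Mrpl40 rose (limma), while 3.87% of all tested genes fell and 23.5% rose. The median member changed by -0.04 and the median gene by 0.16. Rescaling moved the all-gene median to 0.01, and 39 members then fell and none rose, beside 11.4% of all genes falling and 11.1% rising, while the median member changed by -0.22. Mrps14, a protein of the small-subunit head, measured 30.0, 33.8, 26.0, 37.7 and 37.7 TPM in Con and 21.4, 21.6, 27.9, 21.0 and 22.2 TPM in CAC. Only CAC replicate 3 overlapped Con, and the change was -0.51 (SE 0.12, adjusted p = 0.00837). Mrps28 measured 99.9, 98.2, 108, 115 and 115 TPM in Con and 84.2, 89.3, 78.4, 98.7 and 94.8 TPM in CAC, where replicate 4 overlapped Con. Its change was -0.27 (SE 0.08, adjusted p = 0.0197), lost without Con replicate 4 or CAC replicate 1 (adjusted p up to 0.0531). Mrpl18 measured 101, 120, 131, 125 and 135 TPM in Con and 83.1, 95.6, 107, 95.9 and 112 TPM in CAC. Con replicate 1 was the low one, and the change of -0.31 (SE 0.09, adjusted p = 0.0228) was lost without Con replicate 3 or 5 or CAC replicate 1 or 4 (adjusted p up to 0.0674). Mrpl40, of the central protuberance, rose by 0.22 (SE 0.08, adjusted p = 0.0419), but changed by 0.04 after rescaling (adjusted p = 0.719) and was lost without Con replicate 1, 2, 4 or 5 or CAC replicate 1, 2, 3 or 4. Leaving out Con replicate 4 or 5 or CAC replicate 4 gave 2 calls in total. Leaving out CAC replicate 1 gave 1 call, which fell. Without CAC replicate 3 there were 7 calls (1 rose and 6 fell), and without CAC replicate 5 there were 10 (5 rose and 5 fell).

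Every CAC library lay below every Con library at 6 weeks for 3 members, Mrpl36, Mrps12 and Mrps9, a share of 3.9% beside 2.31% of all genes. In these CAC libraries 7 of 11 macrophage markers, all 4 tested neutrophil markers and 6 of 8 adipocyte markers rose, beside 23.5% of all genes. Summed macrophage markers ranged from 222 to 281 TPM in CAC and from 131 to 160 TPM in Con, and summed adipocyte markers from 2261 to 3736 TPM and from 1394 to 1562 TPM. Their part in the member changes was not tested. At 8 weeks 0 of 11 macrophage and 0 of 8 adipocyte markers passed between CAC and Con. Of 7 slow-fibre markers 2 fell, beside 4.26% of all genes. The summed slow-fibre level ranged from 14317 to 35853 TPM in CAC and from 26758 to 32164 TPM in Con.

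The comparison of CAC with NCAC asks whether the difference follows the cachectic tumour and not tumour growth as such. It shares the CAC libraries with the comparison above, so its values are given beside those and are not a second line of support. At 8 weeks 13 of 77 members fell and 3 rose, while 2.68% of all tested genes fell and 19.3% rose (limma). The median change was -0.11 for members and 0.16 for all genes; after rescaling 30 members fell and none rose, with medians of -0.32 and -0.01, and 6.05% of genes fell and 5.15% rose. NCAC measured 439, 452, 515, 448 and 635 TPM for Mrpl42, all above the CAC maximum of 411 TPM, and the change was -0.54 (adjusted p = 0.0087). It measured 108, 121, 123, 107 and 126 TPM for Mrps28, also above all CAC libraries, with a change of -0.37 (adjusted p = 0.00849). The other members that fell were Mrpl28 (-0.47, adjusted p = 0.0156), Mrpl18 (-0.40, 0.0216), Mrps33 (-0.46, 0.0301), Mrpl12 (-0.34, 0.0305), Mrps36 (-0.46, 0.0313), Mrpl33 (-0.69, 0.0317), Mrpl46 (-0.34, 0.0322), Mrpl51 (-0.30, 0.0393), Mrpl11 (-0.28, 0.0421), Mrpl53 (-0.46, 0.0462) and Mrpl14 (-0.48, 0.0474). Mrpl42 and Mrps28 were the only 2 members with every CAC library below every NCAC library, a share of 2.6% beside 0.503% of genes.

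The count of 16 at 8 weeks rested on single libraries: it was 9, 10, 8 and 5 without NCAC replicate 1, 3, 4 and 5, and 5, 5 and 10 without CAC replicate 1, 2 and 5. Mrps28, Mrpl42 and Mrpl28 kept their calls in each of these fits, and Mrpl18 lost its call without NCAC replicate 5 only (adjusted p = 0.0558). Among the others followed in this way, Mrps33, Mrpl12, Mrps36 and Mrpl33 each lost their calls without CAC replicate 1 or 2 and without NCAC replicate 5, with adjusted p up to 0.0765, 0.0839, 0.0822 and 0.0821. NCAC replicate 1 (Mrps33, Mrpl33), 3 (Mrpl12, Mrps36, Mrpl33) and 4 (Mrps33, Mrps36, Mrpl33) and CAC replicate 4 (Mrps36) and 5 (Mrps36, Mrpl33) also ended calls when left out. Mrpl46 was lost on removing NCAC replicate 2 or 5, or 1, 2 or 4 of CAC (up to 0.0806), and Mrpl51 on removing any of these or NCAC replicate 3 (up to 0.0844). Mrpl11 and Mrpl53 were kept only on removing NCAC replicate 2 or CAC replicate 6 (otherwise up to 0.0921 and 0.113), and Mrpl14 only on removing CAC replicate 6 (otherwise up to 0.0962). Without NCAC replicate 2 and CAC replicate 6, 18 members fell and 2 rose, beside 4.73% and 25.3% of all genes. Those that rose were Mrps2, a small-subunit protein, Mrps30 and Mrpl38, and none of their calls held after rescaling. Mrps2 measured 11.9, 10.9, 11, 12.3 and 12.2 TPM in NCAC and from 13.7 over a median of 14.4 to 15.5 TPM in CAC. The groups did not overlap, and the change was 0.28 (adjusted p = 0.00975), or 0.08 after rescaling (adjusted p = 0.476). Con measured 14.8, 14.1, 15.1, 14 and 14 TPM, so every NCAC library of Mrps2 was also below every Con library, where the change of NCAC from Con was -0.28 (adjusted p = 0.516). Mrps30 changed by 0.37 (adjusted p = 0.0336; 0.16 and 0.492 after rescaling), and Mrpl38 by 0.39 (adjusted p = 0.0351; 0.18 and 0.438 after rescaling). Both were also lost on removing NCAC replicate 1 or 4, or 1 or 2 of CAC, Mrps30 without NCAC replicate 2 or 5, and Mrpl38 without CAC replicate 5.

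At 6 weeks, 8 members fell against NCAC and none rose, while 4.86% of all genes fell and 27.8% rose. The median change was -0.05, or -0.25 after rescaling, when 45 members and 13.7% of genes fell and no member and 14.4% of genes rose. Mrps28 measured 113, 109, 120, 104 and 112 TPM in NCAC, above every CAC library, and changed by -0.32 (adjusted p = 0.00601, limma). Mrps12 measured 38.3, 41.8, 42.5, 38.9 and 36.3 TPM in NCAC and 33.8, 32.3, 33.7, 33.5 and 31.9 TPM in CAC. The groups did not overlap, and the change was -0.25 (adjusted p = 0.0117). Mrpl36, a zinc-binding protein of the large subunit, measured 51.0, 43.7, 55.1, 42.3 and 43.6 TPM in NCAC and 37.8, 39.1, 37.6, 40.3 and 39.8 TPM in CAC, again without overlap (-0.26, adjusted p = 0.0167). Mrpl18 changed by -0.33 (adjusted p = 0.0136), Mrps36 by -0.33 (0.0220), Mrps6 by -0.35 (0.0256), Mrpl34 by -0.41 (0.0276) and Mrpl54 by -0.19 (0.0491). Mrps28, Mrps12, Mrpl18 and Mrpl36 kept their calls with any 1 library left out. Mrps36 was lost on removing NCAC replicate 1 or 5, or 1, 2 or 4 of CAC (adjusted p up to 0.0592), Mrps6 on removing NCAC replicate 1, 3 or 4, or 2 or 4 of CAC (up to 0.063), Mrpl34 on removing NCAC replicate 1, or 1 or 2 of CAC (up to 0.0737), and Mrpl54 without any library but CAC replicate 4 (up to 0.106). The count was 4 without NCAC replicate 1, and 5 and 4 without CAC replicate 1 and 2. It was 14 without CAC replicate 3 (1 rose and 13 fell) and 12 without CAC replicate 5 (3 rose and 9 fell). In total 6 members had all CAC libraries below all NCAC libraries (7.79%, beside 2.21% of genes), and in these CAC libraries 8 of 11 macrophage and 6 of 8 adipocyte markers rose, whose part was not tested.

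At 2 and 4 weeks no member passed in CAC against Con or against NCAC. Against Con at 2 weeks 0% of all genes passed, 1 member and 9.72% of genes had an unadjusted p under 0.05, and the median was 0.03 (-0.06 after rescaling). Against Con at 4 weeks 1.03% of genes passed, 17 members and 20% of genes had an unadjusted p under 0.05, and the median was -0.08 (-0.14 after rescaling). The smallest adjusted p belonged to Mrps22, a small-subunit protein particular to mitochondria, with a change of -0.34 (SE 0.10, adjusted p = 0.0894, limma). Leaving out CAC replicate 3 gave 1 call that fell, and leaving out CAC replicate 5 gave 3 (1 rose and 2 fell). Against NCAC at 2 weeks 0.503% of genes passed. There 71 members were higher in CAC, and 35 members and 19.7% of genes had an unadjusted p under 0.05, with a median of 0.13. After rescaling the median was 0.07, and 13 members and 15.5% of genes had such a p. For 10 members, Mrps34, Mrpl52, Mrpl38, Mrpl15, Mrpl37, Mrpl39, Mrpl41, Mrps16, Mrps26 and Mrps35, every CAC library was above every NCAC library, 13% beside 3.48% of all genes. The smallest adjusted p was 0.0535, for Mrps34. Leaving out NCAC replicate 2 gave 6 calls, all higher, with the share of all genes in that fit not given. In these libraries the summed slow-fibre markers ranged from 40881 to 47438 TPM in CAC and from 31160 to 40390 TPM in NCAC, and the summed neutrophil markers from 3.43 to 7.73 TPM and from 1.73 to 2.92 TPM, both without overlap, although no marker of either list passed the adjusted test (limma; 5 of 7 and 2 of 4 at an unadjusted p under 0.05). Their part was not tested. Against NCAC at 4 weeks 5.84% of genes passed, 15 members and 27.5% of genes had an unadjusted p under 0.05, and the median was -0.06. Leaving out NCAC replicate 5 gave 1 call that rose, and leaving out CAC replicate 3 gave 1 that fell. Without CAC replicate 1 there were 4 (3 rose and 1 fell), and without CAC replicate 5 there were 8 (2 rose and 6 fell). Rescaling gave 1 call, which fell, beside 3.66% of genes called in either direction.

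No member passed in NCAC against Con at any week (limma), where 0.00739%, 0.00739%, 0% and 0% of all genes passed at 2, 4, 6 and 8 weeks. The members with an unadjusted p under 0.05 numbered 26, 0, 0 and 1 at 2, 4, 6 and 8 weeks (11.4%, 1.79%, 2.42% and 8.91% of all genes), and the median changes were -0.10, -0.01, 0.03 and -0.09. With sample quality weights 10 members fell at 8 weeks, which is no larger a share than the 15.2% of all genes that fell there. With 1 spread shared by all libraries 1 member and 1.23% of genes fell. At 2 weeks 7 members, Mrpl28, Mrpl34, Mrpl37, Mrpl39, Mrpl52, Mrps26 and Mrps28, were lower in every NCAC library than in any Con library (9.09%, beside 1.08% of genes). Mrps28 measured 97.0, 108, 97.7, 106 and 81.4 TPM in these NCAC libraries, which lay under the 111 to 127 TPM of Con.

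The difference of the CAC effect between weeks was tested itself. No member passed for 6 minus 2 weeks, where 2.50% of all genes did, and 8 members and 17.6% of genes had an unadjusted p under 0.05. The smallest adjusted p was 0.0806, for Mrpl36 (-0.36, SE 0.10, limma), and 1 member passed on leaving out Con replicate 4 or CAC replicate 3 of week 2, or Con replicate 1 or CAC replicate 5 of week 6. No member passed for 8 minus 6 weeks, where 0.192% of genes did. There 8 members and 14% of genes had an unadjusted p under 0.05 and the median was -0.15, equal to that of all genes, and after rescaling no member did and the median was -0.01. The larger number of members that fell at 8 than at 6 weeks is therefore not shown to be a difference between the weeks.

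**Figure D3:**
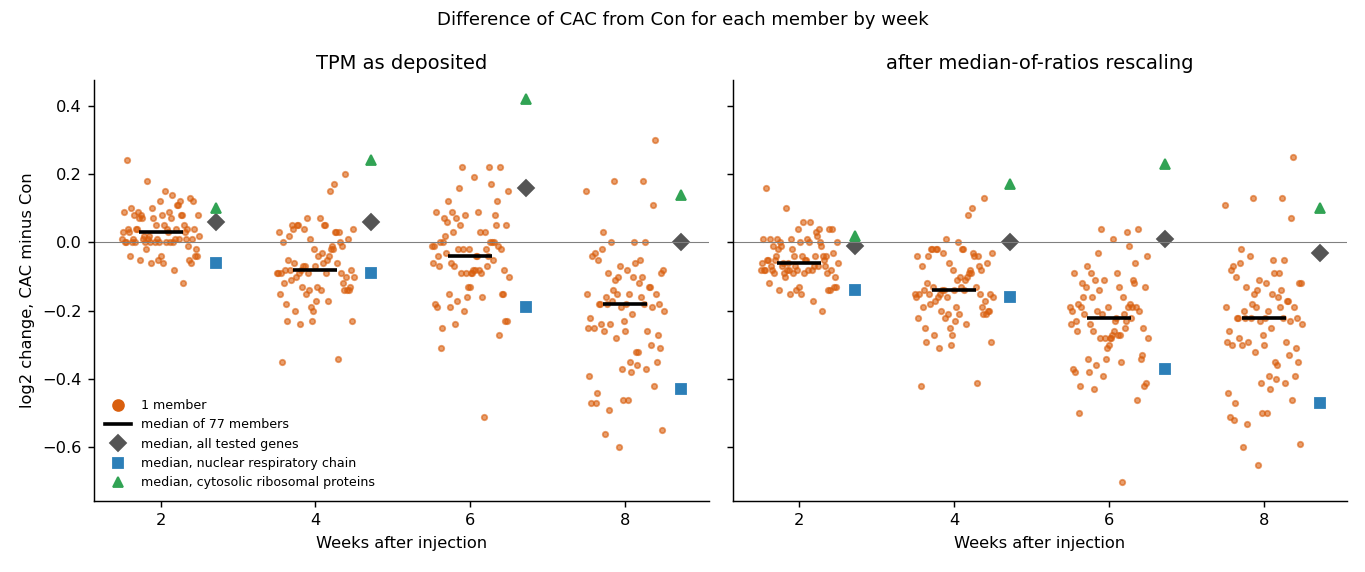
Change of CAC from Con for each of 77 members (points) by week on the log2(TPM + 1) scale, as deposited (left) and after median-of-ratios rescaling (right), with the members' median (bar) and the medians of all tested genes and of 2 comparison lists. The members' median lies below the all-gene median in each week and setting, for example -0.18 against 0.00 at 8 weeks as deposited.

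Between 6 and 8 weeks the direction of the members depended on the scale. In Con 41 members rose and 1 fell as deposited (limma), where 54.1% of all genes rose and 9.65% fell, and after rescaling 12 rose and 32 fell, beside 32.4% and 30.9% of genes. The members' median was 0.24 and the all-gene median 0.29, which rescaling moved to -0.12 and -0.01. NCAC showed 25 and 3 (31.9% and 12.7% of genes), or 16 and 18 after rescaling (27.6% and 25.9%), and CAC showed 16 and 3 (32.2% and 6.77%), or 3 and 17 after rescaling (22.8% and 20.3%). For 33 members (42.9%) every Con library of week 8 was above every one of week 6, which is near the 44.5% of all genes. Without CAC replicate 5 of week 6 the CAC count was 12.

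Mrps24, a small-subunit protein, had the smallest adjusted p in Con and in NCAC. It measured 32.7, 43.5, 43.3, 38.3 and 41.8 TPM in Con at 6 weeks and 67.5, 106, 95.9, 67.5 and 76.3 TPM at 8 weeks. The groups were far apart, with a change of 1.02 (adjusted p = 8.84e-05, limma; 0.65 after rescaling), and NCAC and CAC changed by 1.08 (adjusted p = 0.00106) and 0.81 (adjusted p = 0.00144). Mrpl33, one of the smallest proteins of the large subunit, measured 23.7, 20.6, 24.7, 24.6 and 22.6 TPM in Con at 6 weeks and 35.8, 69.0, 48.8, 38.5 and 51.7 TPM at 8 weeks. Its changes were 1.00 in Con (adjusted p = 0.000191), 1.15 in NCAC (0.00131) and 0.59 in CAC (0.0182; 0.37 and 0.160 after rescaling). In CAC at 8 weeks 6 libraries of Mrpl33 lay from 27.9 to 34.2 TPM and replicate 6 at 63.5 TPM. Mrpl57 rose by 0.72 in Con (adjusted p = 9.36e-05) and Mrpl52 by 0.94 (0.00013), Mrps18c by 0.87 in NCAC (0.00124), and Mrps16 by 0.61 and Mrps6 by 0.59 in CAC (0.000719 and 0.00129).

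A few members fell from 6 to 8 weeks also on the deposited scale. Mrps5 measured 14.2, 15.2, 14.9, 15.2 and 16.2 TPM in Con at 6 weeks and 13.4, 12.9, 14.9, 11.9 and 12.8 TPM at 8 weeks, and fell by 0.19 (adjusted p = 0.0332, limma). In NCAC it measured 14.6, 15.4, 15.9, 14.4 and 14.3 TPM and then 9.26, 13.7, 10.1, 9.29 and 13.3 TPM, without overlap, and fell by 0.41 (adjusted p = 0.0227). Mrpl37 fell in NCAC (-0.37, adjusted p = 0.0319) and CAC (-0.30, 0.0337), Mrpl38 fell in NCAC (-0.34, 0.0443), and Mrpl51 and Mrpl16 fell in CAC (-0.32 and -0.28, 0.0296 and 0.0390). Each of these calls was lost on leaving out single libraries. For Mrps5 these were Con replicates 2 to 5 of week 6 and 4 and 5 of week 8 (adjusted p up to 0.0772), and NCAC replicates 2 and 3 of week 6 and 1 and 4 of week 8 (up to 0.0608). For Mrpl37 and Mrpl38 in NCAC they were replicates 1 to 4 of week 6 and 1 and 4 of week 8 (up to 0.0807 and 0.110), with replicate 5 of week 6 for Mrpl38. In CAC they were replicates 3 to 5 of week 6 and 2 and 4 of week 8 for Mrpl51 (up to 0.0786). For Mrpl37 and Mrpl16 in CAC they were all 5 libraries of week 6 and replicates 2 and 4 of week 8 (up to 0.0743 and 0.0949), with replicate 7 for Mrpl16.

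The changes between the weeks varied with the length of the members. Coding length of the members runs from 261 to 1326 bases, with a median of 576. Across the 77 members the Pearson correlation of the change with log2 coding length was -0.72 in Con, -0.73 in NCAC and -0.67 in CAC, given as a description since members share libraries. With exon length, which includes untranslated parts, it was weaker, at -0.32, -0.29 and -0.28. In Con the 23 members under 450 bases had a median change of 0.56 and all 23 were positive, whereas the 15 members over 900 bases had a median of -0.07. In single libraries, the deviation of each member's log2(TPM + 1) from its own mean over the 62 libraries was set against coding length. The slope of these deviations per doubling of coding length averaged 0.09 in weeks 2 to 6 (-0.03 to 0.16) and -0.24 in week 8 (-0.49 to -0.01). Over all genes with a coding length the slope of such deviations moved in the same direction, from 0.034 to -0.0912. The week-8 slope averaged -0.26 ± 0.142 in Con and -0.36 ± 0.153 in NCAC (SD, n = 5), and -0.143 ± 0.169 in CAC (SD, n = 7), with overlapping libraries. The change of CAC from NCAC at 8 weeks correlated with coding length at 0.60 and that from Con at 0.40 (0.31 and 0.26 with exon length). Under 450 bases the median change was -0.31 from Con, with 0 of 23 positive, and over 900 bases it was -0.14 with 4 of 15 positive. The coding-length trend of all genes was then removed within each library. The slope over all genes in week 8 was smaller than that of the members, so part of the members' trend can remain. After this step 8 members fell in CAC against Con at 8 weeks and none rose (7.26% and 6.87% of genes). Against NCAC 9 fell and none rose (4.56% and 4.85%). From 6 to 8 weeks in Con 6 then rose and 45 fell (30.8% and 32.2% of genes). The part of length in the member changes was not tested.

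**Figure D4:**
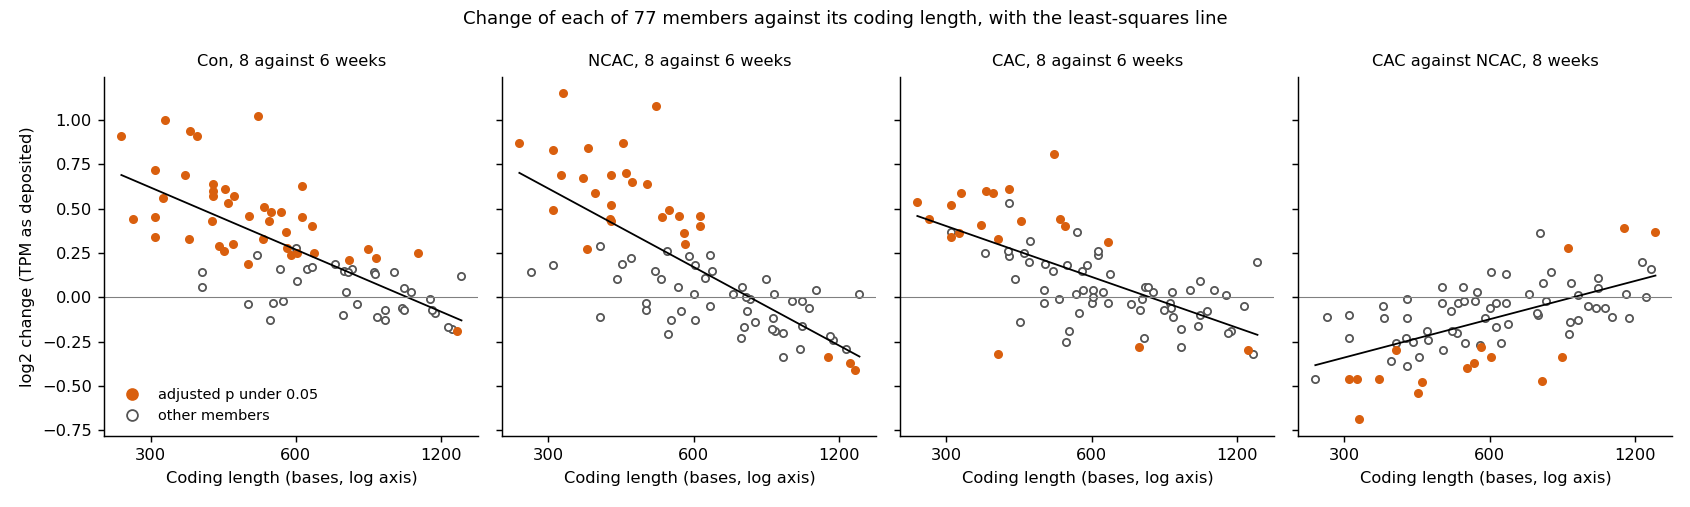
Change of each of 77 members on the log2(TPM + 1) scale against its coding length (bases, log axis), for 8 against 6 weeks in each treatment and for CAC against NCAC at 8 weeks, with the least-squares line. Filled points passed an adjusted p of 0.05; short members lie highest between the weeks and lowest in CAC against NCAC, with correlations of -0.72, -0.73, -0.67 and 0.60.

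Summed over the 77 members, the level was 3982 ± 196, 3912 ± 73.7, 3829 ± 166 and 4867 ± 527 TPM at 2, 4, 6 and 8 weeks in Con (SD, n = 5). In NCAC it was 3706 ± 152, 3852 ± 78, 3897 ± 118 and 4750 ± 455 TPM (SD, n = 5). In CAC it was 4090 ± 245, 3701 ± 226 and 3645 ± 169 TPM (SD, n = 5), and 4047 ± 313 TPM at 8 weeks (SD, n = 7). CAC thus had the highest sum of the 3 treatments at 2 weeks and the lowest at 4, 6 and 8 weeks, with overlapping libraries in each week. The members made up 0.385% of all TPM in weeks 2 to 6 and 0.45% in week 8. TPM is a share of a fixed total, so these values also move with the other genes. The 13 mitochondrially encoded messenger RNAs averaged a sum of 376040 TPM in weeks 2 to 6 and 290298 TPM in week 8. At 6 weeks their sum averaged 398158 TPM in Con and 330577 TPM in CAC. Their part in the members' levels was not tested. Cytosolic ribosomal protein genes, which build the ribosome outside mitochondria, summed to 27943 ± 1441 TPM in Con at 6 weeks and to 74996 ± 22198 TPM at 8 weeks (SD, n = 5).

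**Figure D5:**
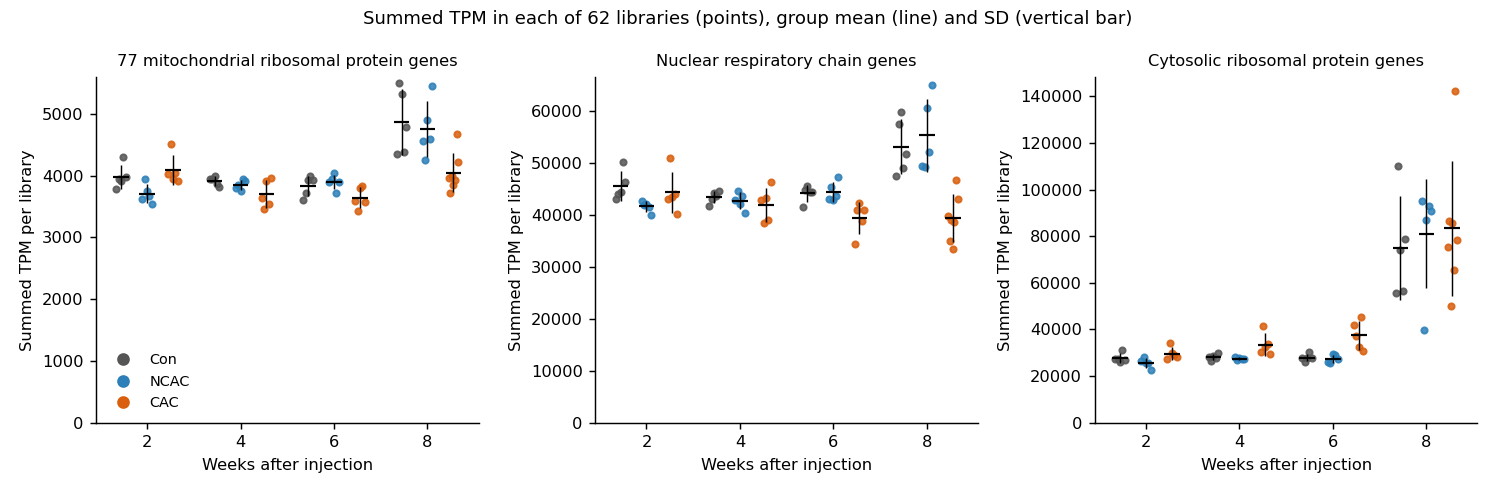
Summed TPM of the 77 members, of nuclear respiratory chain genes and of cytosolic ribosomal protein genes in each of the 62 libraries by week and treatment, with the group mean (line) and SD (vertical bar). At 8 weeks the members' sum averages 4867, 4750 and 4047 TPM in Con, NCAC and CAC, whereas cytosolic ribosomal protein genes lie above their earlier levels in all 3.

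Other genes of mitochondrial translation were read in the same comparison, CAC against Con at 8 weeks. There 4.26% of all tested genes fell and 6.31% rose, so 1 call in a short list is little beyond these shares. Of 7 further mitoribosomal proteins with other symbols 1 fell, Gadd45gip1, which lies at the tunnel exit of the large subunit (-0.41, SE 0.12, adjusted p = 0.0360, limma). Of 12 mitochondrial translation factors 1 fell, Tsfm, the exchange factor of the elongation factor, from 11.9 ± 1.06 TPM in the 5 Con libraries to 8.74 ± 1.97 TPM in the 7 CAC libraries (± SD), a change of -0.43 (SE 0.13, adjusted p = 0.0440). The elongation factor itself, Tufm, changed by -0.20 (SE 0.15, adjusted p = 0.425). Of 30 genes for mitoribosome assembly and mitochondrial RNA 1 rose, Mterf3, a repressor of mitochondrial transcription, by 0.32 (SE 0.09, adjusted p = 0.0271), which rescaling ended (0.28, adjusted p = 0.0948). Tfam, which packages mitochondrial DNA, changed by -0.20 (SE 0.09, adjusted p = 0.144), and Lrpprc, which stabilises mitochondrial messenger RNAs, by -0.09 (SE 0.25, adjusted p = 0.857). At 6 weeks Tfam fell by 0.22 (adjusted p = 0.0497) and Dhx30, an assembly helicase, rose by 0.26 (adjusted p = 0.0379; 0.09 and 0.190 after rescaling).

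The products of the mitoribosome and its partners in the respiratory chain were set beside the members. Of all tested genes in CAC against Con, 4.26% fell and 6.31% rose at 8 weeks, and 3.87% fell and 23.5% rose at 6 weeks. After rescaling, 11.4% fell and 11.1% rose at 6 weeks. Of 82 tested nuclear respiratory chain genes 30 fell and none rose in CAC against Con at 8 weeks, with a median of -0.43, and 27 fell and 1 rose at 6 weeks, with a median of -0.19 (56 and none after rescaling). Of 13 mitochondrially encoded messenger RNAs, which the mitoribosome translates, none fell and 1 rose at 8 weeks, and 7 fell at 6 weeks. Of 79 tested cytosolic ribosomal protein genes none passed at 8 weeks, with 2 at an unadjusted p under 0.05, whereas 65 rose and none fell at 6 weeks (30 and 1 after rescaling), with a median of 0.42. The members' medians of -0.04 and -0.18 at 6 and 8 weeks thus lay between those of the nuclear respiratory chain and of the cytosolic ribosome, and this order also held after rescaling (-0.22 and -0.22, beside -0.37 and -0.47, and 0.23 and 0.10). The difference between the lists was not tested.

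Copies or overlaps bear on 27 of the 77 members. Of these 18, Mrpl42 and Mrpl51 among them, have a pseudogene copy in the annotation that matches over at least 200 bases at 95% identity or more. The table lists 19 such copies, all at 0 in every library, and how reads that match both were assigned is not stated in the sources. A gene on the opposite strand overlaps the exons of 11 members, and whether the counting used strand is not stated either, so reads of the pair cannot be told apart.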

How the data were processed

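Soleus RNA was made into libraries with the TruSeq stranded mRNA kit and sequenced on a NovaSeq 6000, per the labels' protocols. The submitters' processing notes name mm10 as the genome build, with the aligner, the quantifier and any use of strand not given in the sources used here. The authors deposited 1 table of TPM per gene and library, with each library summing to 1000000, so read depth is unknown and no counting error can be given. Groups came from the sample labels. The members and all lists were chosen with earlier results of these data known. TPM was transformed as log2(TPM + 1), so that the changes of low genes are understated. Genes with at least 1 TPM in at least 5 of 62 libraries (13529) were tested with limma 3.58.1 (R 4.3.3, lmFit, contrasts.fit, eBayes with trend), fitting the 3 groups of each week alone, the 2 groups of each 8-against-6-week comparison alone, and Con and CAC of 2 weeks for each interaction. Benjamini-Hochberg adjustment ran over all tested genes, with a threshold of 0.05. The fit was tested on simulated data. The labels call the libraries biological replicates but name no animals, so p-values measure the spread between these libraries.

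Named members were, for CAC against Con or NCAC at 6 and 8 weeks, the 8 with the smallest adjusted p under 0.05 in each direction and the 3 of largest change; for other comparisons the 3 with the smallest adjusted p in each direction; the 5 highest and 3 lowest by level; a panel of stalk, decoding-centre, membrane and paralogous members; and, of the mitochondrial translation lists, up to 2 that passed in CAC against Con at 8 weeks, with Tufm, Tfam and Lrpprc. Of the panel, Mrpl58 is in the table under an older symbol and counts among the 7 further mitoribosomal proteins. Other members, such as Mrpl4, Mrps22 and Dhx30, were named after their values were seen, as members of short counts. Lengths, positions and copies came from GENCODE M21 (GRCm38), with copies found by blastn 2.17.0, and promoters from RefSeq. Python 3.11.15 and matplotlib 3.10.9 drew the figures. Alternatives were a pseudocount of 0.1, no filter, median-of-ratios rescaling, removal of the exon-length trend, all 62 libraries in 1 fit, sample quality weights, a replicate block, the compared groups alone and leaving out each library; removal of the coding-length trend and leaving out libraries that stand apart were added after seeing the data.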

Additional observations from a re-analysis of the deposited data

Results flagged for a closer look

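Within-group spread was examined in 120 groups of libraries, for a part of the named members and for the summed level. Of these, 8 groups held a library whose gap to the nearest other was above the Dixon 95% critical value. Chance gives about 1 in 20, and 8 of 120 is near that rate. Mrpl42 stood apart in Con replicate 1 of week 6 (398 TPM, nearest 433), in Con replicate 2 of week 8 (633 TPM, nearest 517) and in CAC replicate 2 of week 2 (499 TPM, nearest 435). Mrpl12 was high in Con replicate 4 of week 2 (166 TPM, nearest 148), Mrpl46 low in NCAC replicate 4 of week 6 (26.1 TPM, nearest 32.1) and Mrps12 high in NCAC replicate 5 of week 4 (47.9 TPM, nearest 39.1). Mrps36 was high in CAC replicate 2 of week 2 (89.0 TPM, nearest 70.3), the same library whose 77 members summed to 4518 TPM (nearest 4040).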

How the results depend on the processing

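Members called, in both directions together, moved as follows. In CAC against Con the exon-length trend gave 1 at 4 weeks; at 6 weeks rescaling gave 39, exon length 23, coding length 16 and sample weights 13 in place of 4; at 8 weeks all libraries in 1 fit gave 36, weights 28 and leaving out the libraries that stand apart 17 in place of 9, while the share of all genes called went from 10.6% to 31.1%, 25% and 14.2%. In CAC against NCAC weights gave 1 at 2 weeks; rescaling, exon length and coding length gave 1, 2 and 3 at 4 weeks and 45, 36 and 27 at 6 weeks, where weights gave 15 and the groups alone 5 in place of 8; at 8 weeks rescaling gave 30, coding length 9, 1 fit 30, weights 28 and the groups alone 3 in place of 16, with 11.2%, 9.41%, 43.1%, 40.2% and 11.8% of all genes in place of 21.9%. At 6 weeks the shares of all genes were 22.5%, 22.4%, 22.2% and 38.9% against Con under rescaling, exon length, coding length and weights in place of 27.4%, and 28.2%, 28.2%, 27.7%, 33.2% and 22.2% against NCAC under these and the groups alone in place of 32.6%. At 4 weeks against Con exon length called 1.69% of all genes, and at 2 weeks against NCAC weights called 1.56%. At 4 weeks against NCAC rescaling, exon length and coding length called 3.66%, 3.98% and 4.36%. In NCAC against Con at 8 weeks 1 fit gave 1 and weights 10, with 1.29% and 16.9% of all genes. From 6 to 8 weeks more members rose than fell as deposited, and more fell than rose under rescaling, exon length and coding length. In that order these gave 44, 48 and 51 calls in Con, beside 63.3%, 62% and 62.9% of all genes. NCAC had 34 (16 rose and 18 fell), 42 and 39, beside 53.4%, 53.4% and 52.9%. CAC had 20, 28 and 32, beside 43.1%, 42.4% and 43.9%. With 1 fit 43 were called in NCAC and 39 in CAC, beside 59.1% and 55.7% of all genes. With weights 44 were called in NCAC, beside 66.7%. For the effect at 6 minus 2 weeks exon length, coding length and weights gave 1, 1 and 2, beside 2.73%, 2.51% and 6.13% of all genes. For 8 minus 6 weeks 1 fit gave 1, beside 1.46%. The cause was not tested. Leaving out 1 library gave 0 to 3, 1 to 10 and 6 to 14 calls for CAC against Con at 4, 6 and 8 weeks, and 0 to 6, 0 to 8, 4 to 14 and 5 to 20 for CAC against NCAC at 2, 4, 6 and 8 weeks. It gave 36 to 45, 22 to 35 and 12 to 23 from 6 to 8 weeks in Con, NCAC and CAC, 0 to 1 for the effect at 6 minus 2 weeks, and 0 otherwise. The shares of all genes called in these fits are not given.

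Named members were followed under the other pseudocount, no filter, rescaling, 1 fit, the block and single libraries left out, and none changed sign there. Same-numbered libraries did not deviate together in every pair, which cannot tell whether the numbers pair the samples. With a replicate block 3 and 8 members were called in CAC against Con at 6 and 8 weeks, beside 25.2% and 6.8% of all genes. Against NCAC 8 and 14 were called, beside 30.8% and 25.8%. From 6 to 8 weeks 38, 22 and 17 were called in Con, NCAC and CAC, beside 61.3%, 35.5% and 42%. The block ended 10 named calls. TPM carries no depth, so precision rests on 5 to 7 libraries a group.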
